A study of Rattus norvegicus with 6 samples.

Results

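The TWEAK receptor gene Tnfrsf12a and 5 related genes of the tumour necrosis factor (TNF) receptor family, Tnfrsf1a, Tnfrsf1b, Tnfrsf11b, Tnfrsf21 and Fas, were examined in cultured heart muscle cells. These 6 genes were represented by 9 of the 31042 probe sets tested (6 of 14217 genes with a symbol), found by their gene symbol in the platform annotation. The family was chosen by its array values as well as by its function, since the differences of Tnfrsf12a between these same groups were already known, so the members' differences are a description and not a test. Members' calls place them among all probe sets and support nothing further.

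Heart muscle cells of Wistar rats aged 1 to 2 days were separated from fibroblasts on a Percoll gradient and measured in 3 groups of 2 Affymetrix arrays. Control cells had no treatment, a second group received 50 µmol/l phenylephrine (an agonist of α1-adrenergic receptors), and the remaining group was stretched along both axes to 112% during 24 h. Before stretch, these cells spent 36 h on collagen-coated silicone and another 24 h without serum. For the control and phenylephrine cells the sources used here give neither growth surface nor serum-free period, nor the duration of phenylephrine. The protocol text of the phenylephrine arrays also lists endothelin-1 and angiotensin II, but no array is labelled with either. Several preparations were pooled for RNA, which in vitro transcription amplified. Whether both arrays of a group come from separate cultures is not stated, so errors and p-values reflect differences between these arrays alone and may be technical.

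Receptors of the TNF family sit at the cell surface and bind trimeric ligands. Some carry an intracellular death domain, through which they can start cell death (Fas, Tnfrsf1a, Tnfrsf21), while others bind TRAF adaptors directly and act mostly through NF-κB and MAP kinases (Tnfrsf12a, Tnfrsf1b). Osteoprotegerin, encoded by Tnfrsf11b, is a secreted decoy for the ligands RANKL and TRAIL. Tnfrsf12a, also called Fn14, is the receptor for the cytokine TWEAK (Tnfsf12) and is known as a gene induced by growth factors and tissue injury.

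The arrays were alike in their medians, 8.30 to 8.33 log2, and correlated with each other at 0.984 to 0.995 across probe sets. They were less alike in spread. The interquartile range was 1.89 to 1.92 log2 on the replicate 1 arrays and 1.70 to 1.82 on the replicate 2 arrays, lowest for phenylephrine. Spike-in controls of phenylephrine replicate 2 had a median of 9.04 log2, against 9.68 to 9.95 on the other arrays. The 9 measured cardiomyocyte markers lay at 13.2 log2 or above on every array, and none of them passed the threshold in any comparison in limma (with unadjusted p under 0.05 there were 0 for stretch and 1 for phenylephrine against control, and 0 between the stimuli). All 10 fibroblast markers were below the control mean with both treatments. Their summed level was 15.41 to 15.44 log2 on the control arrays, 15.13 to 15.19 with stretch and 14.91 to 14.97 with phenylephrine. The lowest fibroblast marker value was 8.49 log2. For macrophage and leukocyte, endothelial, and smooth muscle and pericyte markers the lowest were 7.29, 7.63 and 7.68, below the array medians. Whether such values exceeded background was not tested. In such bulk samples, fewer cells of a type and less RNA per cell cannot be told apart.

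The promoter of Tnfrsf12a is shown because this was the member with a difference above 1 log2, and that of Tnfrsf1a because it had the next highest difference with stretch. Both windows run from 250 bases before to 50 bases after the gene start in RefSeq (build GRCr8) and are written 5′ to 3′ on the gene's strand, at chr10:13213599-13213898 on the minus strand for Tnfrsf12a and chr4:159836869-159837168 on the plus strand for Tnfrsf1a. Capitals mark GC boxes (GGGCGG on either strand).

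Tnfrsf12a: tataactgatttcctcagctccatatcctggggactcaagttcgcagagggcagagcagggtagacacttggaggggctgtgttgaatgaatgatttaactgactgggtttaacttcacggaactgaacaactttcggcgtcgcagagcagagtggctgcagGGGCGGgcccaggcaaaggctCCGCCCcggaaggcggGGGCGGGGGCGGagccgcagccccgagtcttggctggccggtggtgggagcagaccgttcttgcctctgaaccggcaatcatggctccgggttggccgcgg
Tnfrsf1a: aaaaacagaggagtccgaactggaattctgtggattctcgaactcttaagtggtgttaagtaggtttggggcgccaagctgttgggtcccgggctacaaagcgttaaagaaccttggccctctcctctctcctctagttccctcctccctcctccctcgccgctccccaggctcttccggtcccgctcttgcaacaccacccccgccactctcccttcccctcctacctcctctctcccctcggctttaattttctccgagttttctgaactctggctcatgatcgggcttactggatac

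The Tnfrsf12a window held 4 GC boxes, beginning at positions -88, -67, -51 and -45 counted from the gene start as 0, and the Tnfrsf1a window held 0. Among the 33469 RefSeq promoters of the same length, 33.1% held a GC box and 4.64% held at least 4. Promoter entries were found for 5 of the 6 members (not Tnfrsf11b), and 4 of these held a GC box. The GC content was 61.3% for Tnfrsf12a and 55.7% for Tnfrsf1a. On both strands, the windows were also searched for AP-1 (TGANTCA, in 7.33% of all promoters), the cyclic AMP response half-site (TGACG, 21.2%), the ATF4 element (TGATGNAA, 3.98%), TEAD (GGAATG, 14.2%), the TATA box (TATAAA, 14.2%), NF-κB (7.51%) and the CArG box of SRF (1.64%). None of these 7 had a match in the Tnfrsf12a or Tnfrsf1a window. AP-1 matched in Tnfrsf1b and Fas, TEAD in Tnfrsf1b and NF-κB in Fas. These are matches of letters in a short window and say nothing of binding.

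Tnfrsf12a (probe set 1371785_at) was higher in the cells under both stimuli. Its log2 signal was 10.54 and 10.63 on the control arrays, 12.28 and 12.18 with phenylephrine, and 11.98 and 12.14 with stretch. Every treated array lay above both control arrays, by 1.35 to 1.60 log2 for stretch and 1.55 to 1.74 for phenylephrine, depending on the pair of arrays. The group means were 10.58 ± 0.06 for control, 12.23 ± 0.07 for phenylephrine and 12.06 ± 0.12 for stretch (SD, n = 2). The difference from control was 1.48 ± 0.12 log2 for stretch (SE of the limma fit), or 2.78-fold, and 1.65 ± 0.12 for phenylephrine, or 3.13-fold. Among all 31042 probe sets, these were the differences of rank 18 and 21 from the highest.

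Between the stimuli, Tnfrsf12a was slightly lower with stretch than with phenylephrine. The pairs of stretch and phenylephrine arrays did not overlap, with stretch below by 0.04 to 0.30 log2. The difference was -0.17 ± 0.12 log2 with a 95% interval of -0.44 to 0.10, which includes 0, so no difference in size between the stimuli was resolved with 2 arrays a group. Leaving out phenylephrine replicate 2, the array with low spike-in signals, gave 1.69 for phenylephrine against control and -0.22 for stretch against phenylephrine.

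**Figure D1:**
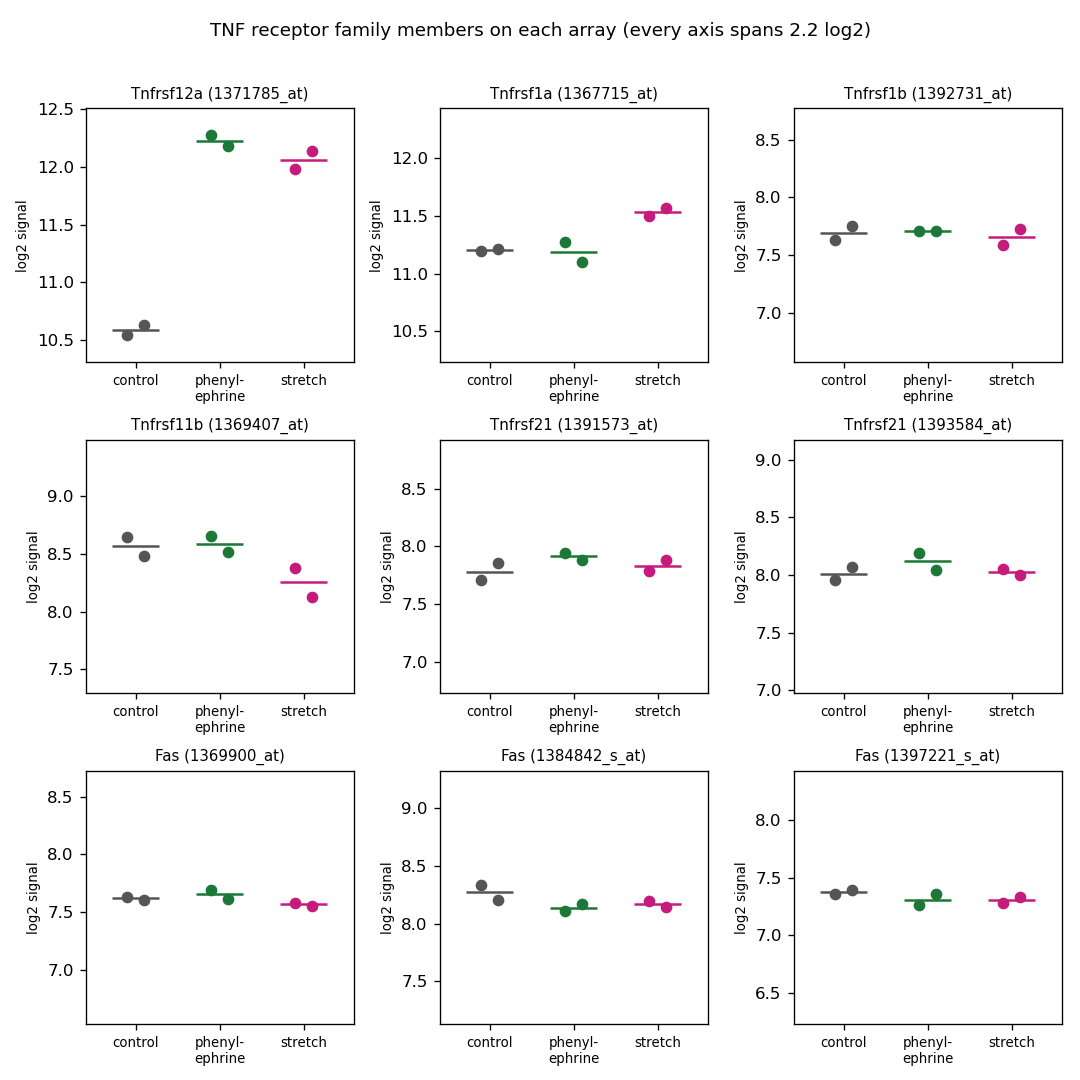
Log2 signal of the 9 probe sets of the 6 TNF receptor family genes on each of the 6 arrays, with points for arrays and lines for group means (n = 2), each axis spanning 2.2 log2. Tnfrsf12a lay near 10.6 on the control arrays and at 11.98 to 12.28 on the treated ones, while the other 8 probe sets stayed within 0.34 log2 of their control mean on the group means.

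Tnfrsf1a, the death domain receptor for TNF found on most cells, had higher values with stretch that did not pass the threshold. Probe set 1367715_at read 11.19 and 11.22 log2 on the control arrays, 11.28 and 11.10 with phenylephrine, and 11.50 and 11.57 with stretch. Both stretch arrays lay above the other 4, whereas the phenylephrine arrays overlapped the controls. Stretch minus control was 0.33 ± 0.12 log2 (SE; 1.25-fold), phenylephrine minus control -0.02 ± 0.12, and stretch minus phenylephrine 0.34 ± 0.12. None of these passed the threshold of an adjusted p under 0.05 over all probe sets.

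Tnfrsf1b, the second TNF receptor, which lacks a death domain and is best known from immune and endothelial cells, varied little (probe set 1392731_at). It read 7.63 and 7.75 log2 in control cells, 7.71 and 7.71 with phenylephrine, and 7.59 and 7.72 with stretch. The groups overlapped, and the differences from control were -0.04 ± 0.07 for stretch and 0.02 ± 0.07 for phenylephrine (SE).

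Tnfrsf11b, the gene of the decoy receptor osteoprotegerin, had lower values with stretch that did not pass the threshold (probe set 1369407_at). Its log2 signal was 8.64 and 8.49 on the control arrays, 8.65 and 8.52 with phenylephrine, and 8.38 and 8.13 with stretch. Both stretch arrays lay below the other 4, and the phenylephrine arrays overlapped the controls. The difference was -0.31 ± 0.10 for stretch minus control (SE; 1.24-fold lower), 0.02 ± 0.10 for phenylephrine minus control and -0.33 ± 0.10 for stretch minus phenylephrine, none of them called. Leaving out single arrays gave -0.44 to -0.19 for stretch against control. On the same arrays the summed level of the fibroblast markers was 15.13 to 15.19 log2 with stretch, 14.91 to 14.97 with phenylephrine and 15.41 to 15.44 in control cells. Their part in the difference of Tnfrsf11b was not tested.

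Tnfrsf21, which encodes death receptor 6, was read by 2 probe sets. Probe set 1393584_at gave 7.96 and 8.07 log2 in control cells, 8.19 and 8.05 with phenylephrine, and 8.06 and 8.00 with stretch, and probe set 1391573_at gave 7.71 and 7.85, 7.95 and 7.88, and 7.78 and 7.88. Phenylephrine minus control was 0.11 ± 0.07 and 0.13 ± 0.07 log2 (SE), and stretch minus control 0.02 ± 0.07 and 0.05 ± 0.07. The groups overlapped in all of these except for phenylephrine and control on probe set 1391573_at, where the smallest gap was 0.02 log2.

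Fas, the death receptor for Fas ligand, had 3 probe sets, of which 1384842_s_at and 1397221_s_at carry the suffix that marks probes shared between transcripts. Probe set 1384842_s_at read 8.34 and 8.20 log2 in control cells, 8.11 and 8.17 with phenylephrine, and 8.19 and 8.14 with stretch. The other 2 lay between 7.26 and 7.69 on all arrays. Stretch minus control was -0.10 ± 0.07, -0.07 ± 0.06 and -0.05 ± 0.06 for 1384842_s_at, 1397221_s_at and 1369900_at. Phenylephrine minus control was -0.13 ± 0.07, -0.07 ± 0.06 and 0.03 ± 0.06, so the probe sets did not share a sign there. Control arrays lay above all 4 treated arrays for 1384842_s_at and 1397221_s_at, but the nearest ones were all but level, at 8.20 and 8.19 log2 for the former and both at 7.36 for the latter. By every probe set, the group means of Fas were within 0.13 log2 of control. All 3 probe sets of Fas, both of Tnfrsf21 and that of Tnfrsf1b had group means below the array medians, and whether their signal exceeded background was not tested.

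Over the 9 member probe sets, 1 was called (adjusted p under 0.05 in limma) for stretch against control, where 0.345% of all probe sets were called, and 1 for phenylephrine against control, where 3.6% were. In both cases it was Tnfrsf12a. For stretch against phenylephrine 0 of 9 were called in limma, against 1.33% of all probe sets, and before adjustment 2 reached p under 0.05 (12.5% of all probe sets did). Before adjustment 3 did for stretch against control (5.54% of all) and 1 for phenylephrine against control (16.6%). Because these contrasts were known when the family was chosen, nothing is read from these counts. The arrays of both groups did not overlap for 6 of 9 member probe sets for stretch against control (35.9% of all probe sets), for 4 for phenylephrine against control (43.6%) and for 4 for stretch against phenylephrine (38.8%). The 8 probe sets other than Tnfrsf12a had differences of -0.31 to 0.33 log2 for stretch and -0.13 to 0.13 for phenylephrine. The median over the 9 was -0.04 for stretch and 0.02 for phenylephrine, against 0.006 for all probe sets in each.

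**Figure D2:**
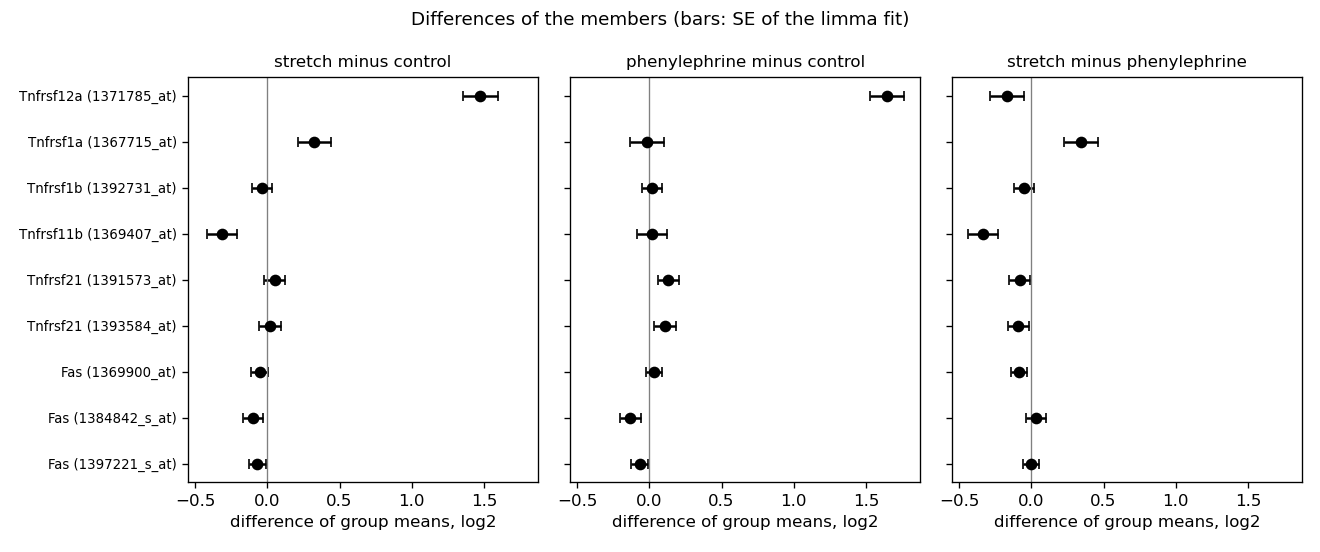
Differences of group means in log2 for the 9 member probe sets in the 3 comparisons, with bars for the SE of the limma fit (n = 2 arrays per group). Tnfrsf12a stands at 1.48 and 1.65 against control, Tnfrsf1a and Tnfrsf11b, neither of them called, stand at 0.33 and -0.31 with stretch, and the others lie within 0.13 of 0 against control.

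The 5 genes whose pattern over the 6 arrays was nearest to that of Tnfrsf12a were Akip1, Mthfd2, Fhl1, Asns and Phf24. Likeness was the root mean square difference of log2 values taken from each gene's control mean, and it was 0.10 for Akip1, 0.18 for Mthfd2, 0.20 for Fhl1, 0.24 for Asns and 0.33 for Phf24. Akip1 encodes a protein that binds protein kinase A and the p65 subunit of NF-κB, and read 11.06 and 11.04 log2 in control cells, 12.80 and 12.57 with phenylephrine, and 12.41 and 12.39 with stretch. Mthfd2 is a mitochondrial folate enzyme, and read 8.82 and 8.90, 10.65 and 10.48, and 10.10 and 10.03. All treated arrays lay above both control arrays for both genes, as for Tnfrsf12a, which follows from choosing genes by closeness to its values. Stretch minus control and phenylephrine minus control were 1.19 ± 0.11 and 1.53 ± 0.11 log2 for Fhl1, a LIM domain protein of muscle. They were 1.63 ± 0.15 and 1.93 ± 0.15 for asparagine synthetase (Asns), and 0.99 ± 0.11 and 1.41 ± 0.11 for Phf24, a PHD finger protein (SE). Genes near each other by this measure were found among 14217 genes and share the same 6 arrays.

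**Figure D3:**
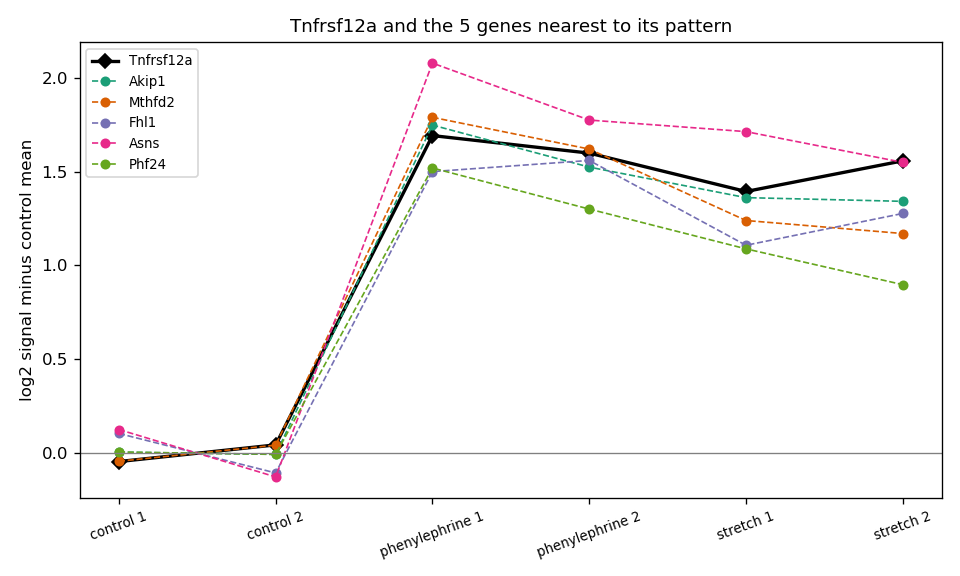
Log2 signal minus the control mean on each of the 6 arrays for Tnfrsf12a (black) and the 5 genes nearest to its pattern, with lines that only connect the points of a gene. All 6 genes are near 0 on the control arrays, whose mean was subtracted, and at 0.898 or above on every treated array. The shared rise follows from choosing the 5 genes by likeness to Tnfrsf12a. Akip1 runs closest to Tnfrsf12a with a root mean square difference of 0.10 log2.

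The ligands of Tnfrsf12a, Tnfrsf1a, Tnfrsf1b, Fas and Tnfrsf11b that were measured did not pass the threshold with either stimulus. Tnfsf12, which encodes TWEAK, the ligand of Tnfrsf12a, read 9.05 and 9.12 log2 in control cells, 9.09 and 8.91 with phenylephrine, and 9.25 and 9.07 with stretch (probe set 1372503_at). The groups overlapped, and the differences were 0.07 ± 0.10 log2 for stretch (SE; adjusted p = 1 in limma) and -0.09 ± 0.10 for phenylephrine (adjusted p = 0.761). Tnf itself had 0.003 ± 0.07 for stretch and 0.11 ± 0.07 for phenylephrine (-0.06 ± 0.05 and -0.03 ± 0.05 by its other, dimmer probe set). Lymphotoxin alpha (Lta) had -0.05 ± 0.06 and -0.02 ± 0.06, and Fas ligand (Faslg) -0.02 ± 0.07 and 0.01 ± 0.07. Of the ligands bound by osteoprotegerin, RANKL (Tnfsf11) had 0.08 ± 0.08 and 0.14 ± 0.08 (-0.02 ± 0.09 and 0.06 ± 0.09 by its other probe set), and TRAIL (Tnfsf10) -0.03 ± 0.07 and 0.08 ± 0.07. Tnfsf10, Tnfsf11, Lta and Faslg lay below the array medians, where it was not tested whether signal exceeded background.

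Of 12 measured ligands of the family, 0 were called for stretch in limma (0 also at p under 0.05 before adjustment; median difference 0.009 log2). For phenylephrine 1 was called, Eda, the ligand ectodysplasin of skin appendage development. Eda read 9.02 and 8.98 log2 in control cells and 8.57 and 8.47 with phenylephrine, a fall of 1.40-fold (-0.48 ± 0.08, SE; adjusted p = 0.0191 in limma). Its mean with stretch was 8.98 ± 0.04 (SD, n = 2), overlapping the controls, and it differed between the stimuli by 0.46 ± 0.08 (adjusted p = 0.0402).

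Of 13 other receptors of the family 0 were called in any of the 3 comparisons in limma, with 0, 0 and 1 at an unadjusted p under 0.05. Their differences ran from -0.08 to 0.13 log2 for stretch and from -0.23 to 0.13 for phenylephrine, with medians of -0.004 and 0.04. Relt, an orphan receptor of the family, had the highest value for stretch at 0.13 ± 0.12 (SE; adjusted p = 1). Against these 13 receptors and 12 ligands, Tnfrsf12a was the only measured receptor or ligand of the family with a difference above 1 log2 with either stimulus. The median level on an array was 7.78 to 7.90 log2 for the 13 receptors and 7.72 to 7.82 for the 12 ligands, below the array medians. Whether the signal of such dim genes exceeded background was not tested, so small differences there do not show unchanged genes.

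Among 30 adaptors and regulators of receptor signalling, which include the TRAF adaptors that Tnfrsf12a binds and the death adaptors of Fas and Tnfrsf1a, 0 were called in limma in any comparison. At an unadjusted p under 0.05 the numbers were 3 for stretch against control, 5 for phenylephrine against control and 3 for stretch against phenylephrine, where 5.54%, 16.6% and 12.5% of all probe sets reached it. These shares of all probe sets are the background of the other lists' unadjusted counts too. The median difference was -0.02 log2 for stretch and -0.09 for phenylephrine, with 11 and 6 of the 30 above control. Larger differences with phenylephrine, named after their values were seen, were those of Tnfaip3, Tnip2 and Tab1. They were -0.56 ± 0.14, -0.49 ± 0.11 and -0.48 ± 0.10 (SE; adjusted p = 0.0858, 0.0549 and 0.0518 in limma). These genes were called with quantile normalization, which called 2790 of all probe sets for phenylephrine in place of 1117. The highest value with phenylephrine was 0.26, for Cyld. Tnip1, which restrains NF-κB signalling, had the largest value for stretch at -0.31 ± 0.12 (SE; adjusted p = 0.753). Of 6 shedding proteases and their regulators 0 were called in limma in any comparison, with 0, 1 and 2 at an unadjusted p under 0.05, and Adam10 had the largest value for stretch (-0.22 ± 0.28; adjusted p = 1), with -0.03 ± 0.08 by its other probe set.

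Among 11 NF-κB subunits, kinases and inhibitors, 0 were called for stretch in limma (1 at an unadjusted p under 0.05; median 0.04 log2). For phenylephrine 1 rose and 1 fell, and the median was -0.09. Nfkbiz, an inducible nuclear IκB protein, read 8.87 and 8.77 log2 in control cells, 9.87 and 9.56 with phenylephrine, and 8.86 and 8.72 with stretch (probe set 1378032_at). It rose 1.86-fold with phenylephrine (0.90 ± 0.12, SE; adjusted p = 0.00875 in limma) and was lower with stretch than with phenylephrine (-0.93 ± 0.12; adjusted p = 0.014). The other probe set of Nfkbiz, 1380798_at, did not show this (0.02 ± 0.08 for phenylephrine). Bcl3, another nuclear IκB protein named after its values were seen, was not called by its brighter probe set (-0.12 ± 0.09 for phenylephrine) but fell by 1398482_at (-0.41 ± 0.07; adjusted p = 0.0202). Nfkbia, the inhibitor IκBα and itself a target of NF-κB, fell with phenylephrine from 10.47 and 10.37 to 9.92 and 9.80 log2 (-0.56 ± 0.11; adjusted p = 0.0347), a call kept in 5 of 11 alternative settings, and had -0.20 ± 0.11 with stretch (adjusted p = 1).

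Among genes that TNF and NF-κB are known to induce, those that passed the threshold against control were lower in the treated cells. Of 24 measured, 3 fell and 0 rose with stretch, and 8 fell and 0 rose with phenylephrine, with medians of -0.07 and -0.22 log2 against 0.006 for all probe sets. Of all probe sets, 0.345% were called for stretch, 95 up and 12 down, and 3.6% for phenylephrine, 538 up and 579 down. Lcn2, an iron-binding lipocalin, read 11.38 and 11.24 log2 in control cells, 10.54 and 10.43 with phenylephrine, and 9.99 and 9.82 with stretch. It was 2.66-fold lower with stretch (-1.41 ± 0.12, SE; adjusted p = 0.00451 in limma) and 1.77-fold lower with phenylephrine (-0.83 ± 0.12; adjusted p = 0.0122). The groups did not overlap. The complement gene C3 and the chemokine gene Cxcl2, named after their values were seen, were the other falls with stretch, at -0.70 ± 0.08 and -0.42 ± 0.06.

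Vcam1, an adhesion molecule for leukocytes, read 10.24 and 10.09 log2 in control cells and 9.35 and 9.03 with phenylephrine (-0.98 ± 0.13, SE; adjusted p = 0.00991 in limma). With stretch it read 9.52 and 9.36, a difference that did not pass (-0.73 ± 0.13; adjusted p = 0.109). The chemokine genes Cxcl1 and Cxcl10 fell with phenylephrine by 0.84 and 0.84 log2 (adjusted p = 0.0328 and 0.0056; called in 5 and 11 of 11 alternatives) and had -0.49 ± 0.16 and -0.17 ± 0.10 with stretch (adjusted p = 0.619 and 1). Cxcl10 was higher with stretch than with phenylephrine (0.67 ± 0.10; adjusted p = 0.0238), as was the chemokine gene Ccl20, named after its values were seen (0.72 ± 0.13; adjusted p = 0.042). Ccl20 lay above control on both stretch arrays, by 0.53 to 0.65 log2, a difference that did not pass (0.59 ± 0.13; adjusted p = 0.184). Fibroblast markers were lower in the same arrays, with median differences of -0.23 log2 for stretch and -0.53 for phenylephrine. For stretch against control, 0 fibroblast, endothelial or macrophage and leukocyte markers were called in limma. For phenylephrine against control, 4, 2 and 1 of them were called down and 0 up. Of 10 macrophage and leukocyte markers, 8 were below the control mean with stretch and 7 with phenylephrine, and their summed level was 13.56 to 13.58 log2 in control cells, 13.51 to 13.52 with stretch and 13.12 to 13.29 with phenylephrine. The summed level of 9 endothelial markers was 12.21 to 12.22, 12.08 to 12.10 and 11.90 to 11.96. That of 10 smooth muscle and pericyte markers was higher in the treated cells, at 12.75 in control cells, 13.02 to 13.07 with stretch and 13.27 to 13.43 with phenylephrine. However, 4 of these 10 lay below control with stretch and 5 with phenylephrine, and the median differences were only 0.05 and 0.02 log2. In limma 1 was called up for stretch, and 3 up and 1 down for phenylephrine. The part of these cell types in the differences was not tested.

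**Figure D4:**
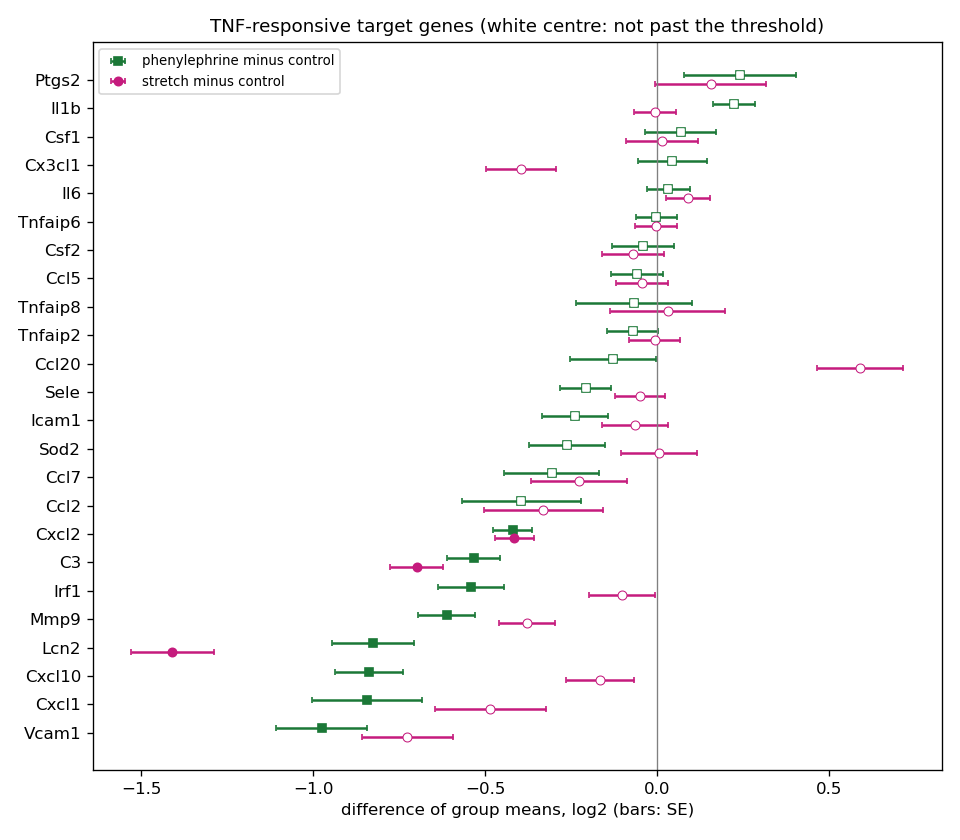
Differences from control in log2 for 24 TNF-responsive target genes, with phenylephrine as green squares and stretch as pink circles, bars for the SE of the limma fit and white centres for differences that did not pass (n = 2 arrays per group). The filled symbols, 8 for phenylephrine and 3 for stretch, all lie below 0, with Lcn2 lowest for stretch at -1.41.

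Over all 6 lists, 96 of 114 listed genes were measured. Of these 0 rose and 3 fell with stretch (3.12%, against 0.345% of all probe sets), 1 rose and 10 fell with phenylephrine (11.5%, against 3.6%), and 3 were higher and 1 lower with stretch than with phenylephrine (4.17%, against 1.33%). The list shares count genes, each by its brightest probe set, whereas the shares beside them count all probe sets, 9780 of which had no symbol. The lists were also chosen with earlier results of these data known, so nothing is read from the gap between the shares. The comparisons with control share the control arrays. Without control replicate 1 or 2, the number called was 0 or 1 for stretch and 2 or 1 for phenylephrine, and without stretch replicate 1 or 2 it was 1 or 1 for stretch. For phenylephrine it was lower than with all arrays without phenylephrine replicate 2, and higher without phenylephrine replicate 1. For stretch against phenylephrine it was 2 without either control array, 1 without phenylephrine replicate 2 and 0 without either stretch array.

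**Figure D5:**
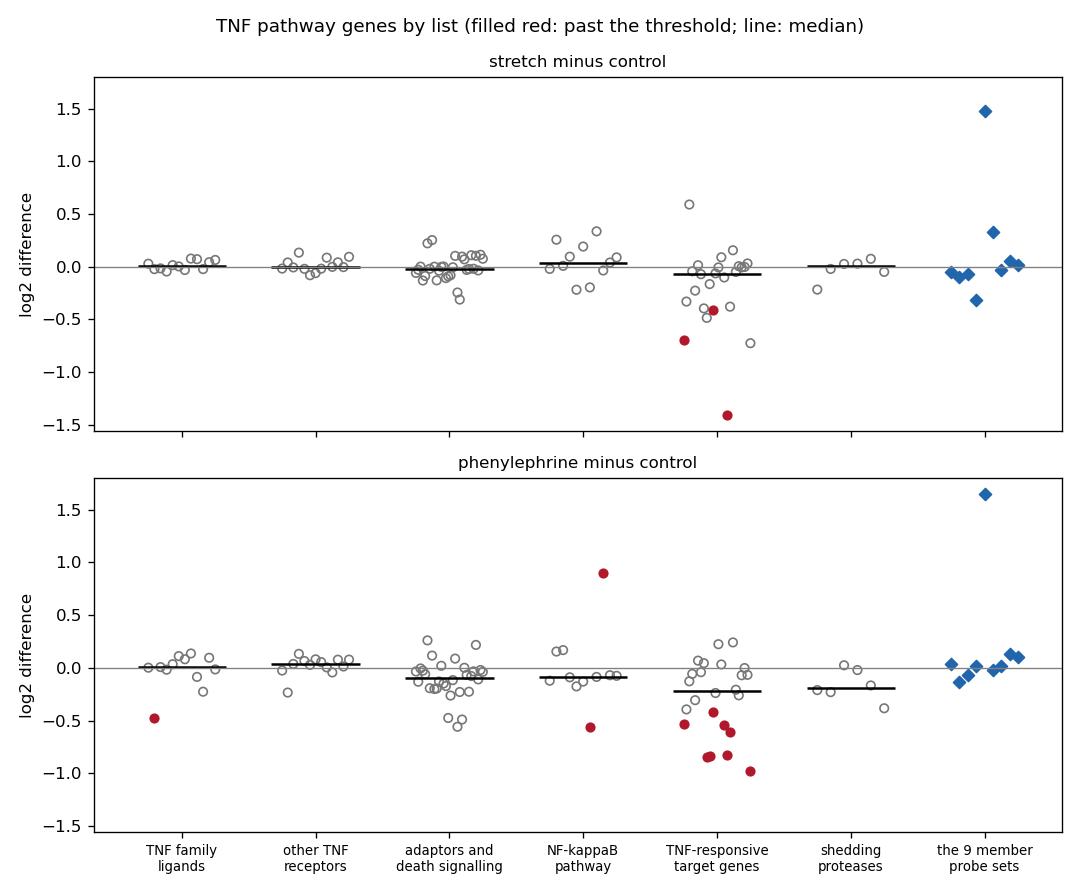
Log2 differences from control of every measured gene of the 6 lists (circles, filled red where past the threshold in limma) and of the 9 member probe sets (blue diamonds), for stretch above and phenylephrine below, with lines for the list medians. Tnfrsf12a is the diamond at 1.48 and 1.65, the ligands and other receptors lie near 0 apart from Eda with phenylephrine, and the red points lie below 0 except Nfkbiz at 0.90.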

How the data were processed

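The authors deposited 1 value per probe set and array for 6 Affymetrix arrays. The values, 5.80 to 15.18, were taken as log2 signals from their range, and the method behind the deposited log2 values (summary, background, normalization) is not given in the sources used here. No detection calls were used. Of 31099 probe sets, 57 array controls were left out. Gene symbols came from the platform annotation of 2016, in which 20826 probe sets had 1 symbol. All 6 members matched RefSeq GRCr8 by Entrez identifier.

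limma 3.58.1 (R 4.3.3; lmFit, then eBayes with trend) estimated the 3 group means and their differences for 31042 probe sets together. Its two-sided p-values were adjusted over all of these by Benjamini-Hochberg, and called means adjusted p under 0.05. The fit was tested on simulated data. For list genes with several probe sets, the one brightest on average was used.

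The members and lists were chosen with earlier results of these data known. Genes named were all members, their ligands, up to 4 called genes with the largest change per list (or the largest stretch value), and the 5 nearest patterns. The number of arrays limits the precision.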

Additional observations from a re-analysis of the deposited data

Results flagged for a closer look

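A few genes of the TNF pathway differed between stretch and phenylephrine by the direct comparison in limma. By each gene's brightest probe set, stretch minus phenylephrine was 0.46 log2 for Eda, -0.93 for Nfkbiz, 0.67 for Cxcl10 and 0.72 for Ccl20. The other probe set of Nfkbiz, 1380798_at, did not show this (-0.02 ± 0.08, SE). Bcl3 was called by 1398482_at (0.41 ± 0.07; adjusted p = 0.0365 in limma) but not by its brightest probe set (0.10 ± 0.09). Nfkbiz was called in 9 of 11 alternatives, Cxcl10 in 7, and Eda and Ccl20 in 5, and none of the 4 was called without stretch replicate 1 or without stretch replicate 2. Tnfsf10 lay below the control mean on both stretch arrays and above it on both phenylephrine arrays, but its difference of -0.11 log2 did not pass (adjusted p = 0.567), and the signal was among the dimmest on the arrays. None of the 9 member probe sets showed opposite directions on all arrays. Groups of 2 arrays are too small for a check of single arrays that stand apart.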

How the results depend on the processing

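Tnfrsf12a was called against control in all 11 alternatives for each stimulus, with differences of 1.39 to 1.56 log2 for stretch and 1.60 to 1.69 for phenylephrine, and in 0 of 11 for stretch against phenylephrine (-0.25 to -0.09). Of 135 recomputed member differences that a setting could move, 122 kept their direction. The 13 that did not were uncalled, with sizes of at most 0.05 log2 before and 0.07 after. With 1 array left out, 1, 1 and 0 member probe sets were called in the order stretch and phenylephrine against control, then stretch against phenylephrine. The lone array of a group was then assumed to vary like the others.

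The replicate block raised the members called to 2 for stretch against control (adding Tnfrsf11b) and 2 for stretch against phenylephrine (Tnfrsf1a and Tnfrsf11b). It gave 9, 24 and 20 genes of the pathway lists in the 3 comparisons, in place of 3, 11 and 4. Over all 31042 probe sets it called 1028, 5384 and 3734, in place of 107, 1117 and 413. Calls thus rose across the whole array, and nothing particular to the members or lists is read from the rise. Deviations of arrays with equal numbers correlated at 0.49 to 0.67 across probe sets, but only 2 numbers exist and the labels do not say what they mark. The causes of these changes were not tested. Quantile normalization gave 5, 18 and 10 list genes, and it called 386, 2790 and 1527 of all probe sets. Without the mean-variance trend 7 list genes were called for stretch against phenylephrine, and 495 of all probe sets. With only the 4 arrays of that comparison, which leaves fewer samples, 2 list genes were called, and 230 of all probe sets. Leaving out single arrays gave 0 to 2, 1 to 14 and 0 to 4. For stretch, Lcn2 was called in 10 of 11 alternatives, C3 in 7 and Cxcl2 in 3. For phenylephrine, Cxcl10 was called in 11, Nfkbiz in 10, and Cxcl1 and Nfkbia in 5. A filter on dim probe sets left 7 of the 9 member probe sets tested and gave 3, 13 and 5 list genes. Of the 23281 probe sets then tested, 103, 1160 and 434 were called.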
